A study of Mus musculus with 13 samples.

Results

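Basal keratinocytes, the cells of the epidermis that sit on the basement membrane, were followed here through 9 genes for the junction that holds them there and for the factor that sets their identity. The genes were Itga6 and Itgb4, Itga3, Cd151, Dst, Plec, Lama3, Lamb3 and Trp63, and they were found as the rows of the count table whose Ensembl identifier maps to these mouse symbols, 9 of 55357 genes. Total RNA of lymphedematous mouse tail, taken at day 28 after TNT from animals of 12 weeks of age, was sequenced in 6 samples labelled TNTProx1 and 7 samples labelled TNTSham. TNT was read as tissue nanotransfection, in which a brief electric field drives nucleic acids into skin. All 13 samples were of lymphedematous tail, and both group labels begin with TNT. What was delivered in either group is not stated in the labels. Prox1 encodes the homeobox factor of lymphatic endothelial identity. The labels give no strain, sex or construct, nor whether each sample is its own animal. The p-values therefore measure the spread between these samples, which may be technical. The tissue is whole tail, in which fewer keratinocytes and less RNA per keratinocyte cannot be told apart.

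Hemidesmosomes are plaques at the base of the epidermis that fasten the keratin filaments of basal cells to the basement membrane. Integrin α6β4 spans the membrane, binds laminin-332 outside the cell, and is tied inside to the plakins plectin and BP230, which hold the filaments of keratin 5 and keratin 14. Loss of these components causes blistering of the skin, and the transcription factor p63 is required for a stratified epidermis to form.

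The samples hold basal keratinocyte RNA: all 5 basal markers, Krt5, Krt14, Krt15, Col17a1 and Cdh3, were found in every library. Krt5 averaged 2548 ± 1229 CPM (counts of a gene scaled by the size and composition of the library) in TNTProx1 (SD, n = 6) and 2669 ± 352 CPM in TNTSham (SD, n = 7). Prox1 itself had 18.7 to 72.9 CPM in TNTProx1 and 23.4 to 33.1 CPM in TNTSham, and its log2 fold change of 0.41 ± 0.23 (SE) did not pass the test (adjusted p = 0.506, edgeR quasi-likelihood test). Libraries held 29691929 to 48007392 counts. Libraries of TNTProx1 stood apart in 2 ways. TNTProx1 2 had little epidermal RNA, with Krt5 at 19.0%, Krt14 at 17.7% and Col17a1 at 21.6% of the TNTSham mean, while Prox1 was at 259% of it. TNTProx1 4, 5 and 6 had 0.136 to 0.193% of their counts on genes of the annotation class TEC, transcripts still without experimental proof, and 3410 to 3539 CPM of Malat1, a nuclear RNA, whereas the other 10 libraries had 0.378 to 0.745% and 8979 to 16810 CPM. Fold changes and ratios that these libraries moved are given with and without them.

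Promoters are shown for Dst and Cd151, whose levels lay at opposite ends in TNTProx1 4, 5 and 6, and for Dst also because 1 row of counts joins transcripts from several starts. Each is the 250 bases before an annotated start, 5′ to 3′ on the plus strand, from RefSeq on build GRCm38.p6, which is older than the build of the counts. Capitals mark GC boxes (GGGCGG, searched on both strands). The windows are chr1:34011345-34011594 and chr1:34160010-34160259 for starts 1 and 2 of Dst, and chr7:141467112-141467361 for start 1 of Cd151.
Dst start 1: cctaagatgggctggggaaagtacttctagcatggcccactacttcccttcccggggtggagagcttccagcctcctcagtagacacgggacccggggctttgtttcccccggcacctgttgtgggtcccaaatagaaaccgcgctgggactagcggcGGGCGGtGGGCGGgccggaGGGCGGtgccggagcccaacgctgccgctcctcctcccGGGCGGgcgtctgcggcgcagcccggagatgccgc
Dst start 2: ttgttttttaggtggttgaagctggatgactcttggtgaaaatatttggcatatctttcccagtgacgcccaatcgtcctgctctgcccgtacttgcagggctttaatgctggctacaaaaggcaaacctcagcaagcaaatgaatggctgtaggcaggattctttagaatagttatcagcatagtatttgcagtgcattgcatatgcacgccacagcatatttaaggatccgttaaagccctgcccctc
Cd151 start 1: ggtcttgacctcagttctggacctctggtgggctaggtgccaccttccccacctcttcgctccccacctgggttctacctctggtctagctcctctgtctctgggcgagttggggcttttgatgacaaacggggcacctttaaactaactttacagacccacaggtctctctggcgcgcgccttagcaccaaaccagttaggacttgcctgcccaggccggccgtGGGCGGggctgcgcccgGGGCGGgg
The windows of Dst differ in composition, with 68.8% G or C and 4 GC boxes at start 1 and 45.2% and 0 GC boxes at start 2. The Cd151 window had 62.4% G or C and 2 GC boxes. The AP-1 letters TGANTCA, searched on both strands, were in none of the 3 windows. Of 32851 mouse promoters of the same length, 32.7% held a GC box and 6.75% held the AP-1 letters, and the median content of G or C was 52.4%. Counts per gene do not say which of the Dst starts was used. Entries were found for 4 of the 9 genes, Itga3, Lamb3, Dst and Cd151.

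None of the 9 genes differed between the groups at an adjusted p under 0.05, and neither did any other gene (0 of 22876 tested, 0%, edgeR quasi-likelihood test with Benjamini-Hochberg adjustment). All 9 passed the filter on low counts. At an unadjusted p under 0.05, Dst was lower and 0 of the 9 were higher, beside 897 lower genes (3.92%) and 1905 higher genes (8.33%) among all tested. A count of 1 in 9 is too small to be set apart from those shares. By other tests on the same 13 libraries, DESeq2 called 619 genes (2.71%) and limma voom with quality weights 573 (2.5%), and 0 of the 9 were among either. In 0 of the 9 were the ranges of the groups separate, against 0.398% of all genes separate and higher in TNTProx1 and 0.214% separate and lower. The median log2 fold change of the 9 was -0.01, with 3 above 0 and 6 below. That of all genes tested was -0.02, with 47.7% of them above 0.

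**Figure D1:**
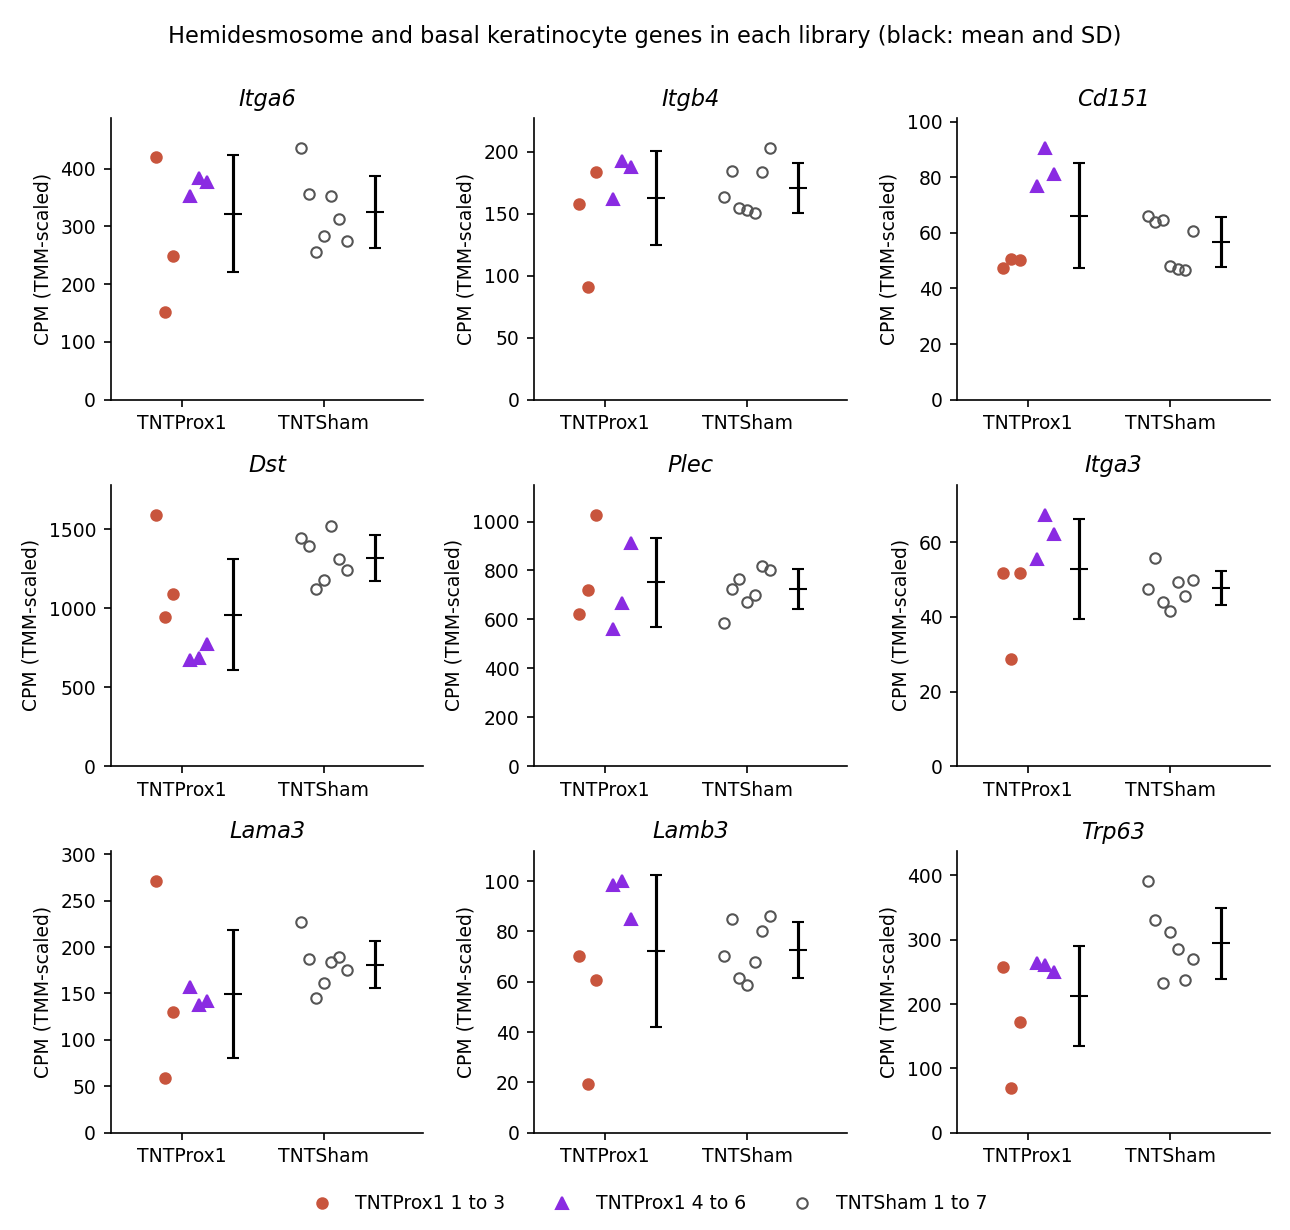
CPM (TMM-scaled, linear axes that start at 0) of the 9 genes in each library, with TNTProx1 1 to 3 as filled circles, TNTProx1 4 to 6 as triangles, TNTSham as open circles to their right, and black bars for the mean and SD of each group. TNTProx1 2 is the lowest point of Itga3, Itga6, Itgb4, Lama3, Lamb3 and Trp63, and TNTProx1 4, 5 and 6 are the lowest 3 points of Dst.

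The integrins and their tetraspanin come before the plaque, the ligand and the transcription factor. Itga6 (ENSMUSG00000027111.17, chromosome 2), the α6 chain of the hemidesmosome integrin, ranged from 151 CPM over a median of 364 up to 419.7 CPM in TNTProx1, and from 256 over a median of 313 up to 435 CPM in TNTSham. The groups overlapped, with 2 TNTProx1 libraries below the TNTSham range and 0 above it. The means were 322 ± 102 CPM in TNTProx1 (SD, n = 6) and 324 ± 61.5 CPM in TNTSham (SD, n = 7), a log2 fold change of -0.01 with a 95% interval of -0.46 to 0.44 (adjusted p = 0.988, edgeR). It was 0.13 ± 0.15 without TNTProx1 2 and -0.25 ± 0.26 without TNTProx1 4, 5 and 6.

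Itgb4 (ENSMUSG00000020758.16, chromosome 11) encodes the β4 chain, whose long cytoplasmic tail binds plectin and which pairs only with α6. It had 91.1 CPM at the lowest, a median of 173 and 193 CPM at the highest in TNTProx1, against 151, 164 and 203 CPM in TNTSham. The other 5 TNTProx1 libraries, at 158 to 193 CPM, all lay inside the TNTSham range. The log2 fold change was -0.07 ± 0.15 (SE; 95% interval -0.40 to 0.26; adjusted p = 0.879, edgeR), 0.05 ± 0.10 without TNTProx1 2 and -0.24 ± 0.18 without TNTProx1 4, 5 and 6.

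Itga3 (ENSMUSG00000001507.17, chromosome 11) encodes the α3 chain, which pairs with β1 and also binds laminin-332, outside hemidesmosomes. Its lowest, median and highest levels were 28.6, 53.6 and 67.4 CPM in TNTProx1, against 41.6, 47.4 and 55.7 CPM in TNTSham. TNTProx1 5 and 6 lay above every TNTSham library and TNTProx1 2 below every one. For Itga3 the log2 fold change was 0.15 ± 0.15 (SE; adjusted p = 0.724, edgeR). Without TNTProx1 2 it was 0.28 ± 0.10 (adjusted p = 0.245, edgeR), and without TNTProx1 4, 5 and 6 it was -0.12 ± 0.16, so that the sign depended on which of these libraries were in the fit.

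Cd151 (ENSMUSG00000025510.15, chromosome 7) encodes a tetraspanin that associates with α3β1 and α6β4. Its levels in TNTProx1 formed separate sets, 47.3, 50.7 and 50.3 CPM in TNTProx1 1, 2 and 3 and 77, 90.4 and 81.2 CPM in TNTProx1 4, 5 and 6, against a lowest of 46.7, a median of 60.8 and a highest of 66.0 CPM in TNTSham. TNTProx1 4, 5 and 6 were above all 10 other libraries. For Cd151 the log2 fold change was 0.22 ± 0.17 (SE; adjusted p = 0.634, edgeR), and -0.20 ± 0.13 without those 3 libraries (adjusted p = 0.419).

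Dst had the lowest p of the 9 genes. Dst (ENSMUSG00000026131.21, chromosome 1), dystonin, gives BP230 in the epidermis, the plaque protein that ties keratin to the β4 chain, and longer forms in nerve and muscle, which whole tail also contains. It had 1591, 942, 1092, 669, 683 and 774 CPM in TNTProx1 1 to 6, against a lowest of 1121, a median of 1308 and a highest of 1518 CPM in TNTSham. Of the TNTProx1 libraries, 5 lay below the whole TNTSham range and TNTProx1 1 lay above it. The means were 959 ± 349.9 CPM in TNTProx1 (SD, n = 6) and 1315 ± 145 CPM in TNTSham (SD, n = 7). Dst thus had a log2 fold change of -0.46 ± 0.19 (SE; 95% interval -0.87 to -0.04; adjusted p = 0.335, edgeR).

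The size of the Dst difference depended on which TNTProx1 libraries were in the fit. Without TNTProx1 1 the log2 fold change was -0.66 ± 0.14 and passed the test (adjusted p = 0.0311, edgeR), when 589 genes passed in all and 110 of 23085 (0.476%) were lower. Without TNTProx1 4, 5 and 6 it was -0.12 ± 0.16 (95% interval -0.50 to 0.25; adjusted p = 0.714, edgeR). Skeletal muscle markers were mixed in the same libraries. The summed level of 8 was 4183 to 5760.1 CPM in TNTProx1 4, 5 and 6 and 4994 to 11700.5 CPM in TNTProx1 1, 2 and 3, against 9132 to 15530.3 CPM in TNTSham. The largest part of that sum was the very long Ttn, at 1974, 2127 and 3004 CPM in TNTProx1 4, 5 and 6, against 6672 to 10400.2 CPM in TNTSham. Neb, at 621, 749 and 1113 CPM, also lay below its TNTSham range of 1265 to 2074 CPM. Myh2, at 141, 159 and 202 CPM, lay below its TNTSham range of 169 to 379.9 CPM in TNTProx1 4 and 5. Acta1, at 569, 679.7 and 604 CPM, lay in the upper part of its TNTSham range of 179 to 638 CPM or above it. Ckm, Myh1, Myh4 and Tnnt3 lay inside their TNTSham ranges. Within them, Myh1 (541, 592 and 556 CPM) and Tnnt3 (71.8, 76.2 and 74.3 CPM) were below their TNTSham means of 945 and 103 CPM. Ckm (221, 158 and 119 CPM) was above its mean of 115 CPM. Myh4 (45.2, 45.5 and 88 CPM) lay on both sides of its mean of 73.8 CPM. A muscle score was the mean of the 8 standardised genes, itself standardised over the 13 libraries. It was -0.55, -0.38 and 0.07 in TNTProx1 4, 5 and 6, against -0.43 to 1.72 in TNTSham. With this score as a covariate the Dst log2 fold change was -0.43 ± 0.24 (adjusted p = 0.523, edgeR).

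Plec (ENSMUSG00000022565.16, chromosome 15) encodes plectin, the other plakin of the plaque, which also anchors filaments in muscle. It had 559 CPM at the lowest, a median of 694 and 1028 CPM at the highest in TNTProx1, against 587, 726 and 818 CPM in TNTSham. TNTProx1 3 and 6 lay above the TNTSham range and TNTProx1 4 just below it. Its log2 fold change was 0.05 ± 0.14 (SE; 95% interval -0.27 to 0.37; adjusted p = 0.905, edgeR).

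**Figure D2:**
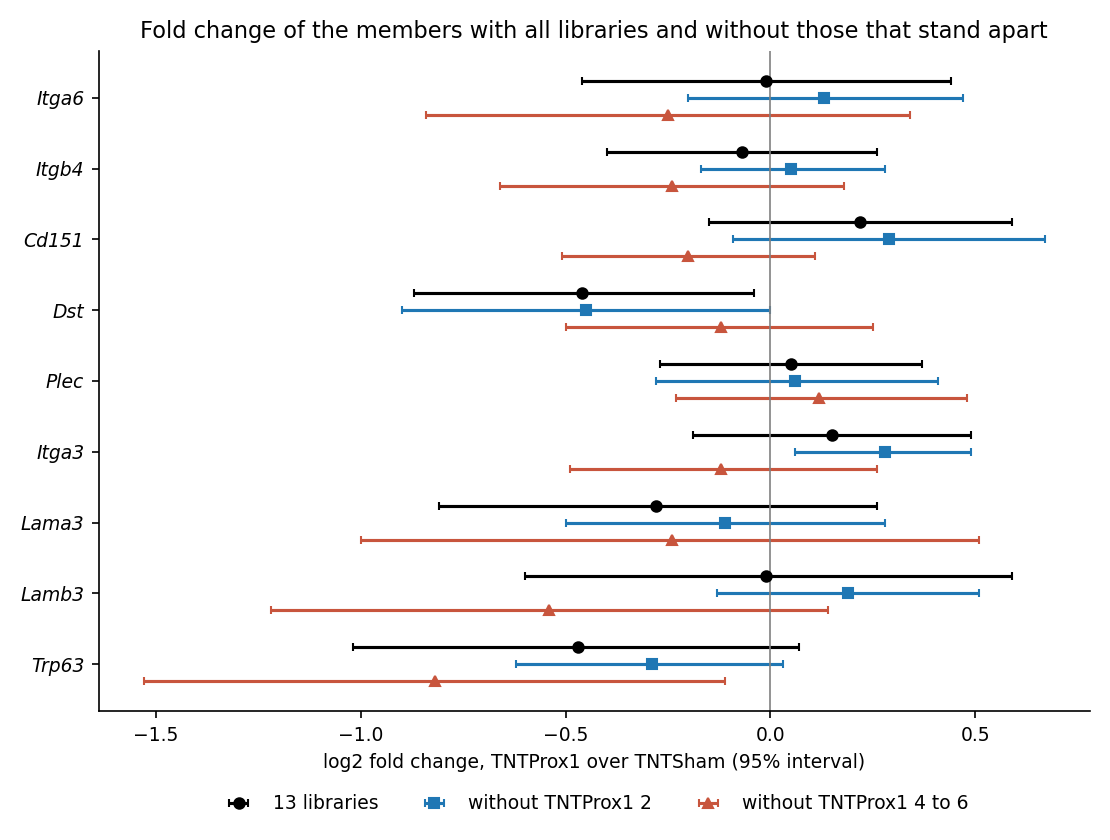
Log2 fold change, TNTProx1 over TNTSham, of each gene (symbols) with its 95% interval (bars), fitted on 13 libraries (circles), without TNTProx1 2 (squares) and without TNTProx1 4, 5 and 6 (triangles). Dst is at -0.46, -0.45 and -0.12 in these fits, and Trp63 at -0.47, -0.29 and -0.82.

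Neither laminin-332 chain of the 9 passed the test. Lama3 (ENSMUSG00000024421.17, chromosome 18) encodes the α3 chain, which carries the integrin-binding end. It had 58.4, 140 and 271 CPM at the lowest, median and highest in TNTProx1, against 145, 184 and 227 CPM in TNTSham. TNTProx1 held both the highest and the lowest of the 13 values, and 4 of its libraries were below the TNTSham range. The log2 fold change was -0.28 ± 0.24 (SE; 95% interval -0.81 to 0.26; adjusted p = 0.681, edgeR). It was -0.53 ± 0.20 without TNTProx1 1, the highest library (adjusted p = 0.179, edgeR), -0.11 ± 0.18 without TNTProx1 2, the lowest, and -0.24 ± 0.33 without TNTProx1 4, 5 and 6.

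Lamb3 (ENSMUSG00000026639.19, chromosome 1) encodes the β3 chain, which is found in laminin-332. It had 19.5, 77.7 and 100 CPM at the lowest, median and highest in TNTProx1, against 58.6, 70.1 and 86.2 CPM in TNTSham. TNTProx1 4 and 5 were above the TNTSham range and TNTProx1 2 was below it. The log2 fold change was -0.01 ± 0.27 (SE; 95% interval -0.60 to 0.59; adjusted p = 0.995, edgeR), 0.19 ± 0.14 without TNTProx1 2 and -0.54 ± 0.30 without TNTProx1 4, 5 and 6.

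Trp63 (ENSMUSG00000022510.15, chromosome 16) encodes p63. It had 258, 69.7, 172, 263, 259.9 and 249 CPM in TNTProx1 1 to 6, against a lowest of 233, a median of 285 and a highest of 391 CPM in TNTSham. All 6 TNTProx1 libraries lay below the TNTSham median, and 2 of them lay below the TNTSham range. The means were 212 ± 77.8 CPM in TNTProx1 (SD, n = 6) and 294 ± 55.5 CPM in TNTSham (SD, n = 7). The log2 fold change was -0.47 ± 0.25 (SE; 95% interval -1.02 to 0.07; adjusted p = 0.464, edgeR).

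The Trp63 difference stayed below 0 without TNTProx1 2 (-0.29 ± 0.15, adjusted p = 0.395, edgeR) and without TNTProx1 4, 5 and 6 (-0.82 ± 0.31, adjusted p = 0.15, edgeR). In the fit on those 10 libraries it was the 1 gene of the 9 with an unadjusted p under 0.05, as were 12.1% of all genes on the lower side and 9.34% on the higher side. The TNTProx1 libraries of that fit had 258, 69.7 and 172 CPM of Trp63, the lowest in TNTProx1 2, which had little epidermal RNA. On the same 10 libraries the log2 ratio of Trp63 over Krt5 differed by 0.03 between the groups. With the score of Krt5, Krt14 and Krt15 as a covariate the Trp63 log2 fold change was -0.35 ± 0.12 (adjusted p = 0.145, edgeR), and that of Itga3 was 0.24 ± 0.08 (adjusted p = 0.115, edgeR). With the muscle score in its place they were -0.22 ± 0.27 for Trp63 (adjusted p = 0.729, edgeR) and 0.47 ± 0.14 for Itga3 (adjusted p = 0.445, edgeR).

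TNTProx1 2 was the lowest of the 13 libraries for 6 of the 9 genes, beside 15.5% of all genes tested. Relative to the TNTSham mean, Trp63 was at 23.7% there, Lamb3 at 26.8%, Lama3 at 32.3%, Itga6 at 46.7%, Itgb4 at 53.4% and Itga3 at 60%. Dst at 71.6%, Cd151 at 89.3% and Plec at 99.5% were less low in the same library. The lowest of these percentages were near those of the basal keratins Krt5 (19.0%), Krt14 (17.7%) and Krt15 (23.7%) and of Col17a1 (21.6%), the transmembrane collagen of the hemidesmosome. All 10 desmosome genes and all 10 suprabasal keratinocyte genes were also lowest in TNTProx1 2, as were 11 of 15 junction partners and 10 of 12 p63 target genes. The low levels were not only epidermal, since 6 of 8 skeletal muscle genes were lowest there too, with a median of 29.8% of the TNTSham mean and a muscle score of -2.34, the lowest of the 13. Lymphatic endothelial genes had a median of 227% and blood endothelial genes 168% in this library.

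**Figure D3:**
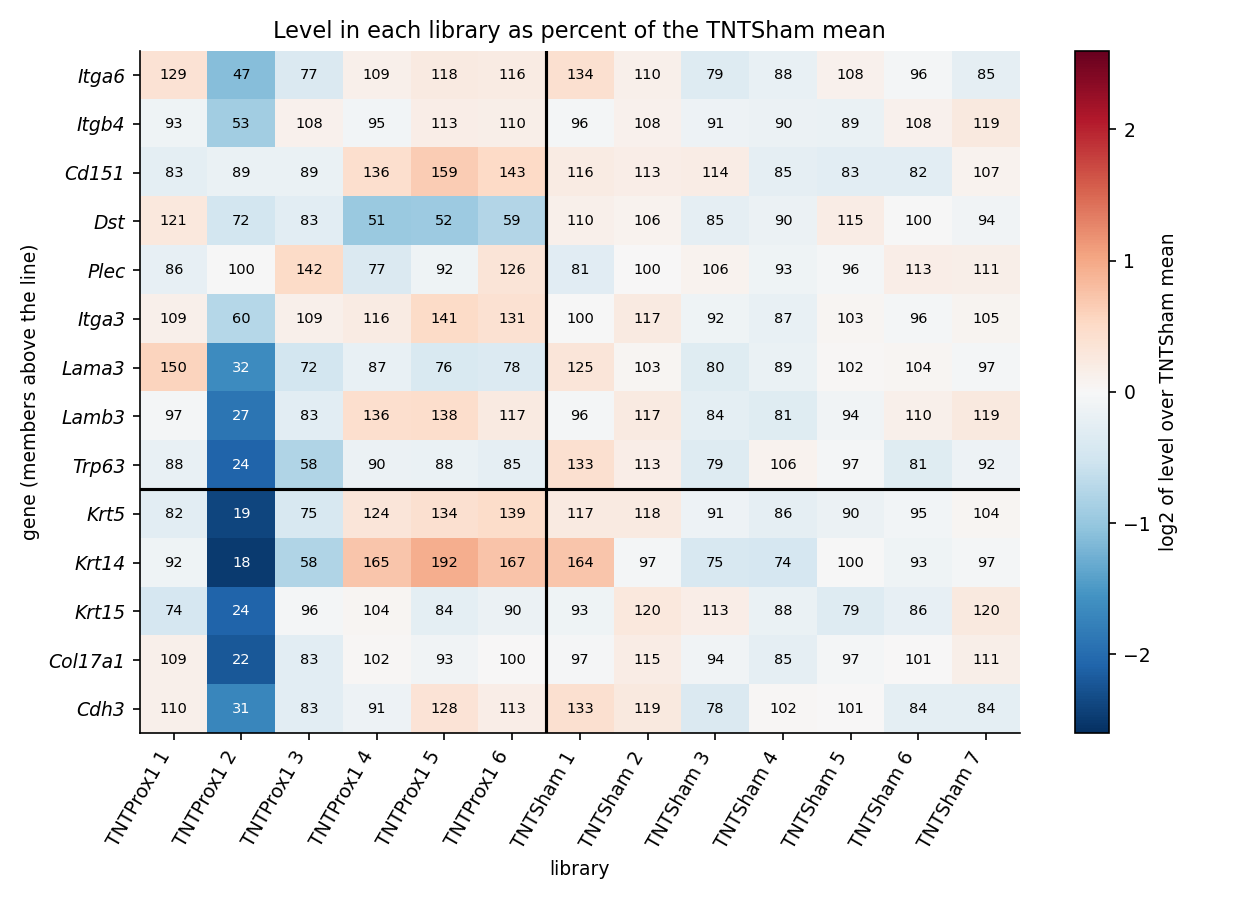
Level of each gene in each library as a percentage of the TNTSham mean, TNTProx1 left of TNTSham, with the 9 genes above the black line and the 5 basal markers below it; the number in a cell is the percentage and its colour the log2 of the level over the TNTSham mean. The TNTProx1 2 column is low from Itga3 (60%) to Trp63 (23.7%) and in the keratins, and Dst is at 50.9 to 58.9% in TNTProx1 4, 5 and 6.

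TNTProx1 4, 5 and 6 differed from TNTSham along exon length. Dst, the longest of the 9 at 41.16 kb of exon, had a difference in mean log2 CPM of -0.89 (these libraries minus TNTSham), and Cd151, the shortest at 2.74 kb, had 0.56. Between them lay Lamb3 at 0.39, Itga3 at 0.37, Itga6 at 0.21, Itgb4 at 0.09, Plec at -0.05, Trp63 at -0.17 and Lama3 at -0.30. Across all protein-coding genes the median of the same difference was 0.25 for genes of up to 3 kb and -0.43 for genes over 15 kb, while for TNTProx1 1, 2 and 3 it was -0.11 and 0.12. Plec, with 18.11 kb of exon, stood at -0.05 where genes over 15 kb had -0.43. The part of exon length in the Dst and Cd151 results was not tested.

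**Figure D4:**
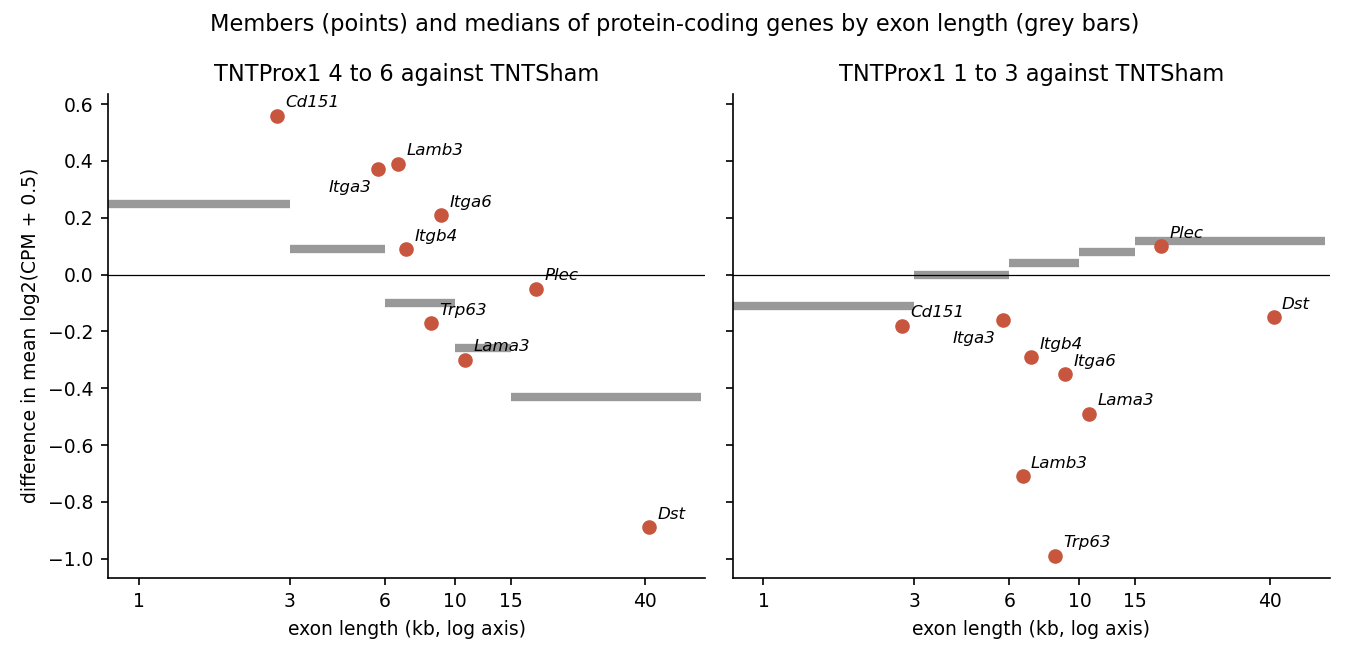
Mean log2 difference from TNTSham against exon length in kb (log axis) for TNTProx1 4, 5 and 6 (left) and TNTProx1 1, 2 and 3 (right), with the 9 genes as points and the medians of protein-coding genes in 5 length classes as grey bars. On the left the bars lie between 0.25 at up to 3 kb and -0.43 over 15 kb, with Cd151 at 0.56 and Dst at -0.89.

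Levels between genes were compared per kb of exon, as mean CPM per kb. Exon length joined the exons of all annotated transcripts of a gene. For Dst, at 41.16 kb, it covers the epidermal and the longer forms together. The place of Dst in the order therefore depends on which forms were present, which was not measured. In TNTProx1 the order was Plec 41.5, Itga6 35.6, Trp63 25.3, Cd151 24.1, Dst 23.3, Itgb4 23.2, Lama3 13.9, Lamb3 10.9 and Itga3 9.26 CPM per kb. In TNTSham it was Plec 40, Itga6 35.9, Trp63 35.1, Dst 31.9, Itgb4 24.3, Cd151 20.7, Lama3 16.8, Lamb3 11 and Itga3 8.35 CPM per kb. In TNTProx1 each pair of neighbours but Itgb4 and Lama3 differed by less than the larger SD of the pair. In TNTSham this held for Plec and Itga6, Itga6 and Trp63, and Trp63 and Dst, and not for the 5 pairs below them. The highest and the lowest of the 9 were the same in both groups, Plec and Itga3, and the integrin chain α6 was above β4 in each group. The spread between libraries was larger in TNTProx1 for 9 of 9 genes, with a median SD of log2 CPM of 0.48 in TNTProx1 and 0.20 in TNTSham, as for 84.0% of all genes (medians 0.39 and 0.23). Without TNTProx1 2 the median SD in TNTProx1 was 0.31 for the 9 and 0.38 for all genes. The SD of Dst (0.53), Plec (0.38) and Cd151 (0.42) did not fall without that library, while those of the other members did.

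The balance of partner chains was measured as log2 ratios within each library, with 6 ratios tested by an exact two-sided permutation test of the group labels and adjusted over the 6. Dst over Plec averaged 0.31 ± 0.55 in TNTProx1 (SD, n = 6) and 0.86 ± 0.27 in TNTSham (SD, n = 7). It was below every TNTSham library in 5 of 6 TNTProx1 libraries, and the difference of -0.55 did not pass (p = 0.0437, adjusted p = 0.262, exact permutation). Without TNTProx1 1 the difference was -0.75 and passed (adjusted p = 0.00758, exact permutation), and without TNTProx1 4, 5 and 6 it was -0.25 (adjusted p = 0.562, exact permutation).

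Itga6 over Itgb4, the chains of one receptor, averaged 0.94 ± 0.33 in TNTProx1 (SD, n = 6) and 0.91 ± 0.32 in TNTSham (SD, n = 7), a difference of 0.03 (adjusted p = 0.869, exact permutation). Itga3 over Itga6, the laminin-binding α chains, differed by 0.18 (adjusted p = 0.47, exact permutation). Lama3 over Lamb3 averaged 1.08 ± 0.57 in TNTProx1 (SD, n = 6) and 1.31 ± 0.23 in TNTSham (SD, n = 7), a difference of -0.23 (adjusted p = 0.501, exact permutation). TNTProx1 4, 5 and 6 had ratios of 0.67, 0.46 and 0.74, below the 10 other libraries, which lay between 1.02 and 1.94. Without those 3 libraries the difference was 0.22. Lama3 has 10.74 kb of exon and Lamb3 6.61 kb. The part of exon length in this ratio and in Dst over Plec was not tested. Against the basal keratin Krt5, Itgb4 differed by 0.20 (adjusted p = 0.686, exact permutation), by -0.05 without TNTProx1 2 and by 0.73 without TNTProx1 4, 5 and 6 (adjusted p = 0.15, exact permutation). Trp63 over Krt5 differed by -0.28 (adjusted p = 0.429, exact permutation). This difference was -0.4 without TNTProx1 2 (adjusted p = 0.167, exact permutation) and 0.03 without TNTProx1 4, 5 and 6.

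**Figure D5:**
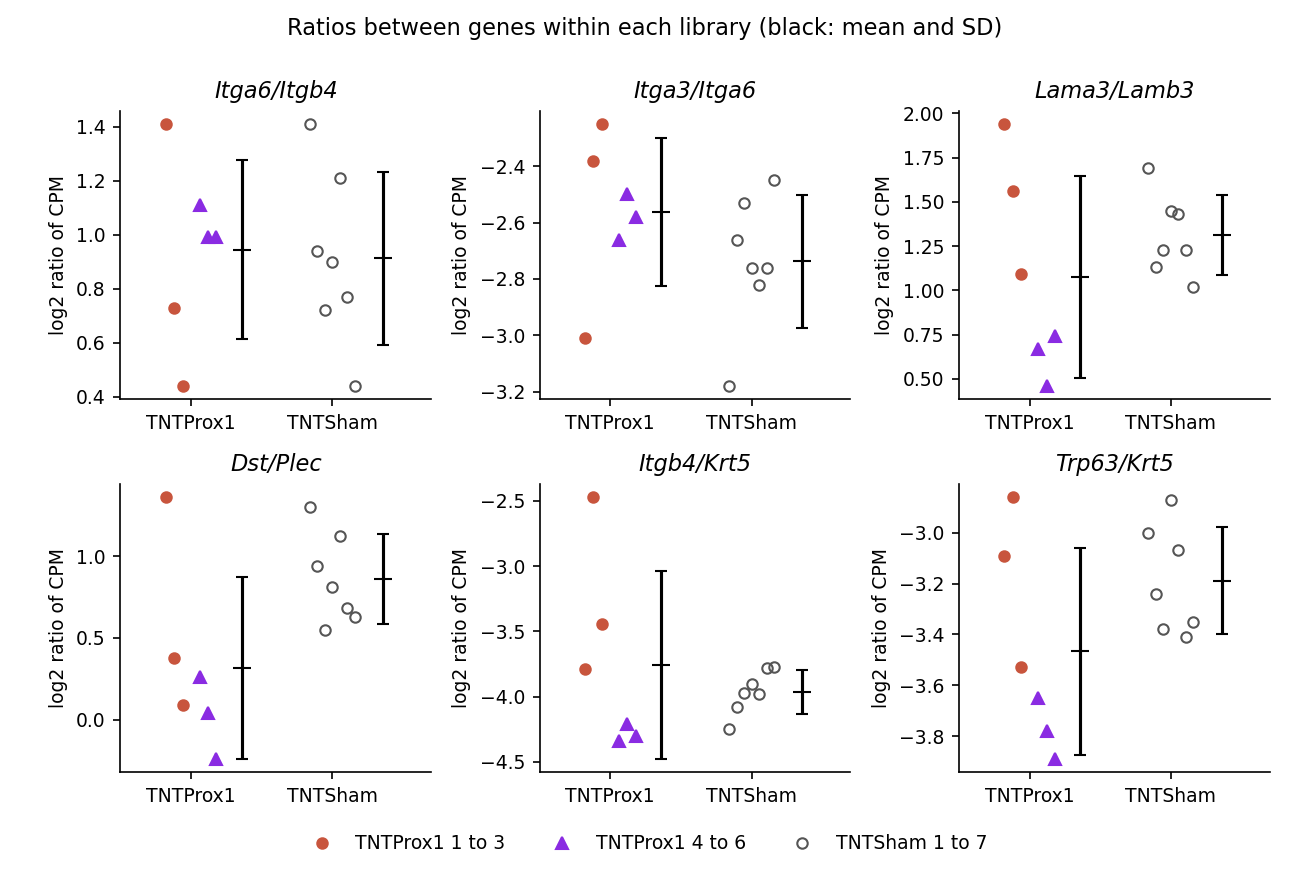
Log2 ratio of 6 gene pairs in each library, TNTProx1 left of TNTSham, with TNTProx1 1 to 3 as filled circles, TNTProx1 4 to 6 as triangles, TNTSham as open circles, and black bars for group means and SD. Dst over Plec is below every TNTSham library in 5 of 6 TNTProx1 libraries, and Itga6 over Itgb4 overlaps across its range of 0.44 to 1.41.

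The genes were unlike in how they varied across the 13 libraries. Likeness was taken as the root mean square (RMS) difference of centred log2 CPM, a description with library and depth in common between the points. The closest pair was Itga3 and Itgb4 (0.157) and the farthest was Lamb3 and Dst (0.731). Itga6 and Itgb4, which form 1 receptor, stood at 0.300, Lama3 and Lamb3 at 0.404 and Dst and Plec at 0.475. Of the members, only Trp63 (0.425) and Dst (0.496) were farther from Itgb4 than the median of all genes compared (0.414). Only Plec (0.689) was farther from Trp63 than that median for Trp63 (0.661). Among 20363 other genes, those nearest to Itgb4 were Efnb2 (0.139), Gm5884 (0.140), Gpsm2 (0.142), Mfhas1 (0.144) and Dedd2 (0.149), where the median gene stood at 0.414. Those nearest to Trp63 were Cdh1 (0.110), which encodes the epithelial cadherin, Sdr16c5 (0.121), Iffo2 (0.123), Gm21969 (0.142) and Slc6a20a (0.161), where the median gene stood at 0.661. Centred log2 CPM of Trp63 was -1.78 in TNTProx1 2 and -0.48 to 0.7 in all other libraries. That library therefore weighed heavily in likeness to Trp63.

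Other genes of the junction and of the epidermis were read from lists, some of which share genes, and 0 genes of any list passed the adjusted test. Beside every list stand the shares of all genes tested, of which 47.7% were above 0. At an unadjusted p under 0.05 (edgeR), 8.33% of all genes were higher and 3.92% lower. Of 15 junction partners, 4 were above 0 and 11 below, with a median log2 fold change of -0.11, and at an unadjusted p under 0.05 there were 1 higher and 3 lower. The 3 of highest level per kb were Krt14 (log2 fold change 0.21 ± 0.40), Krt5 (-0.07 ± 0.32) and the β1 integrin chain Itgb1 (0.32 ± 0.12, adjusted p = 0.279, edgeR). The 3 lower at unadjusted p, named after their values were seen, were Frem2 (-0.63 ± 0.20), Fras1 (-0.51 ± 0.21), both of the basement membrane complex, and the kindlin Fermt1 (-0.46 ± 0.20).

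Of 9 other laminin chains, 6 were above 0 and 3 below (median 0.20), with 1 higher at unadjusted p, beside 8.33% of all genes. Their highest levels per kb were in Lamc1 (0.23 ± 0.14), Lamb2 (0.22 ± 0.18) and Lama4 (0.26 ± 0.15), chains of laminins that lie widely in vessels and muscle. Of 12 p63 target genes, 3 were above 0 and 9 below (median -0.10), with 1 lower at unadjusted p, and Perp (-0.21 ± 0.32) and Sfn (0.17 ± 0.37) joined Krt14 as the highest. Of 10 desmosome genes, 2 were above 0 and 8 below (median -0.22), with 0 at unadjusted p in either direction, among them Dsp (-0.43 ± 0.27) and Dsg1a (-0.36 ± 0.28).

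Of 10 suprabasal genes, 1 was above 0 and 9 below (median -0.35), with 3 lower at unadjusted p, beside 3.92% of all genes. Krt10 (-0.33 ± 0.33), Krt1 (-0.18 ± 0.43) and Krtdap (-0.52 ± 0.28) were the highest in level. Of 6 tetraspanins other than Cd151, 6 were above 0 (median 0.20) and 3 were higher at unadjusted p, with Cd9 at 0.03 ± 0.18, Cd81 at 0.25 ± 0.11 and Cd63 at 0.38 ± 0.13. Of 10 focal adhesion genes, which serve integrin contacts of other kinds, 9 were above 0 and 1 below (median 0.30). At unadjusted p, 6 of the 10 were higher, beside 8.33% of all genes. Among the 10, talin, Tln1, had 0.28 ± 0.11 and vinculin, Vcl, 0.15 ± 0.19.

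Markers of other cells in the tail stood beside these values. Among all genes tested, 47.7% were above 0, and 8.33% were higher and 3.92% lower at an unadjusted p under 0.05. All 8 blood endothelial genes were above 0 and had an unadjusted p under 0.05 (median 0.73), with a summed level of 610.2 to 823 CPM in TNTProx1 and 324 to 614 CPM in TNTSham. The 3 of highest level per kb were Cdh5 (0.83 ± 0.24), Plvap (0.92 ± 0.17) and Pecam1 (0.56 ± 0.17). Lymphatic endothelial genes were 6 above 0 of 6 (median 0.43), with 4 higher at unadjusted p. They had summed levels of 357 to 828 CPM in TNTProx1 and 344 to 456 CPM in TNTSham, led in level by Pdpn, Lyve1 and Mmrn1. Fibroblast genes were 6 above 0 of 6 (median 0.40), with 3 higher at unadjusted p. They were led by Col1a1, Col1a2 and Lum, with sums of 34728 to 103018 CPM in TNTProx1 and 25626 to 49198 CPM in TNTSham. Macrophage genes were 6 above 0 of 6 (median 0.34), with 4 higher at unadjusted p. They were led by C1qb, C1qa and Mrc1, with sums of 932 to 1302 CPM in TNTProx1 and 787 to 1387 CPM in TNTSham. Skeletal muscle genes were 1 above 0 and 7 below of 8 (median -0.73), with 5 lower at unadjusted p, led by Acta1, Myh1 and Ttn. Schwann cell genes were 4 above and 4 below of 8 (median -0.03), with Pmp22 and Mbp among those of highest level and sums of 197 to 341 CPM in TNTProx1 and 197 to 428 CPM in TNTSham. Hair follicle genes were 1 above and 6 below of 7 (median -0.21), led by Krt71, Krt25 and Krt27, with sums of 251 to 982 CPM in TNTProx1 and 302 to 1362 CPM in TNTSham. None of these markers was at 0 CPM in any library, and none passed the adjusted test. Apart from the fits with a muscle score, their part in the results of the 9 genes was not tested.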

How the data were processed

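Ribosome-depleted total RNA was sequenced from 6 TNTProx1 and 7 TNTSham samples of tail as stranded paired-end libraries, per the labels' protocols. The deposited values are raw counts per gene made by the authors. Per the submitters' processing notes, fastp 0.20.1, HISAT2 2.2.1, Subread 2.0.2 with featureCounts and build GRCm39 were used, and DESeq2 1.34.0 under R 4.1.2 is named. The strand setting, the annotation release and the handling of reads with several alignments were not given in the sources used here. Of 55357 genes, 52081 matched a list of gene names by identifier, from which the symbols were taken. GENCODE M21 was used for classes, chromosomes and exon lengths only, since it belongs to an older build.

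Under R 4.3.3, counts were scaled by TMM in edgeR 4.0.16, filtered with filterByExpr (22876 genes kept) and compared with the quasi-likelihood test on the group alone, Benjamini-Hochberg adjusted, at a threshold of 0.05. Standard errors are the log2 fold change over the root of F, and 95% intervals use the residual degrees of freedom (11 with all libraries). The common dispersion was 0.131. Ratios used log2(CPM + 0.5). Total counts were 29691929 to 48007392 per library. Replicate numbers follow the order of the samples and pair nothing. Alternatives were DESeq2 1.42.0, limma 3.58.1 (voom, trend), other scalings and filters, covariates, and libraries left out.

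All 8 skeletal muscle genes were named beside Dst. Otherwise named were the 9 members, the 3 of highest level per kb in each list and the 5 genes most like Itgb4 and Trp63. A list member that this rule named is not reported here. The members and lists were chosen with earlier results of these data known. When tested on simulated data for this comparison, edgeR found 7 of 50 genes changed by a fold of 1.5, 26 of 50 at 2, 33 of 50 at 3 and 41 of 50 at 4, and called 5 of 22676 unchanged genes.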

Additional observations from a re-analysis of the deposited data

Results flagged for a closer look

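Itgb4 had 91.1 CPM in TNTProx1 2, against 158 to 193 CPM in the other 5 TNTProx1 libraries. The gap to the next library was 0.658 of the group's range, above the limit of 0.625 for 6 samples, among 30 groups of values examined, where chance marks about 1 in 20. The same library was the lowest of 13 for 6 of the 9 genes and had Krt5 at 19.0% of the TNTSham mean. The part of epidermal content in the Itgb4 value was not tested.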

How the results depend on the processing

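Of the 25 alternatives, Dst passed in 1, without TNTProx1 1 (adjusted p = 0.0311, edgeR), and the other 8 genes in 0. The log2 fold changes ran from -0.66 to -0.12 for Dst and from -0.82 to -0.22 for Trp63, with no change of sign. The count of all genes called was 0 by edgeR, 619 by DESeq2, 573 by limma voom, 1 without the low-count filter, 545 with the TEC share and 28 with the basal keratin score as a covariate, and 0 to 589 with a library left out (589 without TNTProx1 1, 34 without TNTSham 5), where 0 to 1 of the 9 genes was called. Signs turned for Cd151 (-0.08 with voom, -0.20 on 10 libraries, -0.07 with the TEC share) and for Itga3 (-0.12 on 10 libraries, -0.04 with the TEC share). They turned with the basal keratin score for Itga6 (0.10), Itgb4 (0.02) and Lamb3 (0.10), and with the muscle score for Itga6 (0.22), Itgb4 (0.23), Lama3 (0.01) and Lamb3 (0.51). With a library left out, values ran from -0.10 to 0.13 for Itga6, from -0.13 to 0.05 for Itgb4, from -0.53 to -0.11 for Lama3, from -0.12 to 0.19 for Lamb3 and from -0.08 to 0.13 for Plec. On 10 libraries the ratio differences were -0.06 for Itga6/Itgb4, 0.22 for Lama3/Lamb3, -0.25 for Dst/Plec, 0.73 for Itgb4/Krt5 and 0.03 for Trp63/Krt5. With a library left out they ran from -0.06 to 0.13 for Itga6/Itgb4, from -0.75 to -0.44 for Dst/Plec and from -0.05 to 0.32 for Itgb4/Krt5. The cause was not tested. No paired analysis was possible because the labels give no replicate numbers shared by the groups. Depth was not a limit on detection, since the lowest level of any of the 9 genes in any library was 19.5 CPM (Lamb3 in TNTProx1 2).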
